A study of Mus musculus with 4 samples.

Results

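The genes described here are Phox2a, a homeodomain transcription factor, and 7 genes of catecholamine metabolism: Th, Ddc, Dbh and Pnmt, which encode the synthesis enzymes, Gch1, which supplies their cofactor, Slc18a2, which stores the products, and Maoa, which breaks them down. All 8 were found by symbol in the deposited table, out of 24421 genes. They were chosen by name with the difference between the genotypes in these same libraries known, so their levels and differences are given as a description, with no test. Of the 8, 6 had a mean RPKM (reads relative to exon length and library size) of at least 1 in either genotype and entered the comparison of all genes, and Dbh and Gch1 did not. Ddc and Pnmt entered it only through the mutant libraries.

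The data are transcript levels of neural tube cells of the mouse at E11.5, which were sorted for GFP before RNA-seq. Both groups carry the GFP allele, a knock-in that disrupts Prdm13 and labels cells of its lineage: the control libraries (Prdm13 Het) are from heterozygous Prdm13 GFP/+ embryos and the mutant libraries (Prdm13 Homo) from homozygous Prdm13 GFP/GFP embryos. Each genotype is 1 pool of RNA from several embryos with 2 libraries made from it, so SDs and p-values cover the spread between libraries of a pool and none between embryos, and a difference between the pools cannot be told apart from a difference between the genotypes.

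Catecholamines are made from tyrosine in a short chain. TH, the rate-limiting enzyme, makes L-DOPA with tetrahydrobiopterin as its cofactor, DDC turns L-DOPA into dopamine, DBH turns dopamine into noradrenaline and PNMT turns noradrenaline into adrenaline. PHOX2A and its close relatives are known for specifying noradrenergic neurons, visceral motor neurons and autonomic ganglia, and the Th and Dbh genes are among their known targets in those cells. Cells that release catecholamines normally need the whole chain up to their transmitter, together with the vesicular transporter SLC18A2.

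The sequence in front of the transcription start is shown for the factor and for the first and the third enzyme of the chain, because PHOX2A is known to act on Dbh through this stretch. RefSeq on GRCm38.p6 held an entry for 7 of the 8 genes, Pnmt being the other. Each run is the 250 bases before the start, 5′ to 3′ on the gene's own strand. They lie at chr7:101818063-101818312 (plus strand) for Phox2a, chr7:142899996-142900245 (minus strand) for Th and chr2:27165257-27165506 (plus strand) for Dbh. Capitals mark ATTA, the core that many homeodomain factors recognise, on either strand, and in Th also the cAMP response element.
Phox2a: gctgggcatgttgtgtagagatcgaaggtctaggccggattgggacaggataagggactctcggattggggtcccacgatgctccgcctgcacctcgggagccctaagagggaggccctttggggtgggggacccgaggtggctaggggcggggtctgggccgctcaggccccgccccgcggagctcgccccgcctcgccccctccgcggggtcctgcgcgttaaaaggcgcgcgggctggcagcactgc
Th: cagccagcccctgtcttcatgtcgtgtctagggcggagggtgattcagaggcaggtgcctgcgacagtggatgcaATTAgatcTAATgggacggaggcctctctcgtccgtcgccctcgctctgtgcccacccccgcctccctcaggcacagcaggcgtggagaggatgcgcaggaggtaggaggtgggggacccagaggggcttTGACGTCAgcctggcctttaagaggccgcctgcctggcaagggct
Dbh: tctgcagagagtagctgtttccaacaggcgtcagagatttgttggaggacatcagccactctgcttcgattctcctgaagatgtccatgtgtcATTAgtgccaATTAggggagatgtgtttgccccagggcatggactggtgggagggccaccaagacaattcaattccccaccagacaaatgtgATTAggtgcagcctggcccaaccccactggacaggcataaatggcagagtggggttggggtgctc

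The Dbh window held 3 ATTA cores, which start 157, 147 and 65 bases before the transcription start, and 2 E-boxes, sites for bHLH factors spelled CANNTG, at 165 and 73 bases. The Th window held 2 cores at 175 and 167 bases, 1 E-box at 199 bases and the element TGACGTCA at 45 bases. Ddc has 2 annotated starts, with 3 cores before 1 of them and 2 before the other, where 2 of the 3 share bases. Slc18a2 had 1 core and 1 E-box, Maoa had 1 E-box and no core, and the windows of Phox2a and Gch1 held neither motif. The Phox2a window was 70.4% G and C, a share that 8.79% of windows reach, against a median of 52.4%. Both strands were searched, and the motifs may overlap. Over the 32817 windows of all genes, 54.9% held at least 1 ATTA core, 17.3% held 3 or more, 66.2% held an E-box, 17.2% held neither and 1.55% held TGACGTCA. These matches describe the letters in the windows and no binding was measured here.

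Along the chain, mutant libraries held more Phox2a, Th, Ddc and Pnmt transcript than control libraries, while Dbh was near the limit of detection in both genotypes, Gch1 and Slc18a2 overlapped between them and Maoa was lower in the mutant. By the rule applied to all genes (limma, with a threshold of 0.05 on adjusted p and of 1.5 on the fold), 4 members were called higher and 0 lower, where 3.65% of the 12046 genes tested were called higher, 2.67% lower and 6.33% in either direction. Both mutant libraries lay above both control libraries for 5 members, 4 of which were among the genes tested, and below them for 1. The same separation was found upward for 31.7% and downward for 30.3% of the genes tested. Without mutant replicate 2, only Phox2a and Th among the members were called, and without mutant replicate 1 all but Ddc of the 4. Since the members were chosen with this contrast known, nothing is read from these counts.

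**Figure D1:**
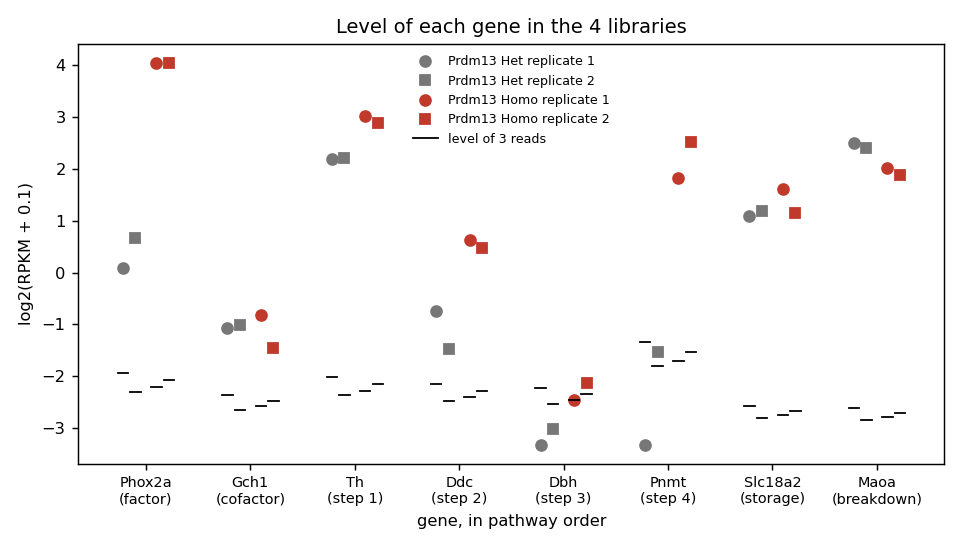
The level of each of the 8 genes is plotted as log2(RPKM + 0.1) for the 2 Prdm13 Het (grey) and 2 Prdm13 Homo (red) libraries, with black bars at the level of 3 reads in that library. Red points lie above grey ones for Phox2a, Th, Ddc, Dbh and Pnmt, and below them for Maoa, and 3 of the 4 Dbh points lie at or under the bar of 3 reads.

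Phox2a (gene ID 11859, chromosome 7, 101818313 to 101822726) was measured at 0.967 and 1.49 RPKM in control replicates 1 and 2, and at 16.3 and 16.4 RPKM in mutant replicates 1 and 2. Both mutant libraries stood far above both controls, and the genotypes did not overlap. The mean level went from 1.23 ± 0.372 RPKM (SD, n = 2) in controls to 16.4 ± 0.0569 RPKM in mutants, a ratio of 13.3. These levels rest on 18 and 44 reads in controls and on 427 and 361 reads in mutants. Scaled to library size, the ratio of reads was 12.7, with a 95% exact interval of 9.79 to 16.7 that covers counting error only. Phox2a stood at percentile 52.9 of all genes of the table in controls and at percentile 79.5 in mutants. In these bulk libraries, more cells with the transcript and more transcript per cell cannot be told apart, here and for every gene that follows.

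By their profile over the 4 libraries, the genes tested that were most like Phox2a were Otp, Shox2, Tbx10, Lmx1b and Nms, at Euclidean distances of 0.207 to 0.476 between centred log2 profiles. The first 2 and Lmx1b also encode homeodomain factors, Tbx10 encodes a T-box factor and Nms a neuropeptide. Otp, the nearest, was at 2.05 and 2.86 RPKM in controls and 31.4 and 37.0 RPKM in mutants. Likeness over 4 libraries mostly reflects the size of the difference between genotypes, which was 3.43 to 3.83 on the log2 scale for these 5 genes and 3.66 for Phox2a. Of the genes beside Phox2a on the chromosome, Inppl1 overlaps it by 95 bases and differed by -0.03 (limma, adjusted p = 0.785), and Clpb, on the side of lower coordinates, by -0.17 (limma, adjusted p = 0.147). Folr2, Folr1 and Art2b were under the filter.

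Th (gene ID 21823, chromosome 7, 142892779 to 142899995), the enzyme that sets the rate of the pathway, was measured at 4.48 and 4.50 RPKM in control replicates 1 and 2 and at 7.98 and 7.28 RPKM in the mutant replicates. Both mutant libraries were above both controls, by a margin larger than the gap between the mutant libraries. The means were 4.49 ± 0.0202 and 7.63 ± 0.495 RPKM (SD, n = 2), a ratio of 1.70, and the log2 difference was 0.75 (SE 0.0797). The reads numbered 91 and 145 in controls and 228 and 175 in mutants, with a ratio of 1.71 and an exact interval of 1.45 to 2.01. Th transcript was thus present in the control lineage as well, at percentile 62.2 of all genes, and at percentile 68.1 in mutants. In controls Th was 4.63 and 3.02 times as abundant per length as Phox2a, and in mutants 0.489 and 0.444 times, so the order of the factor and the enzyme changed sides.

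Ddc (gene ID 13195, chromosome 11, 11814101 to 11898144), which makes dopamine and, from its own precursor, serotonin, was measured at 0.496 and 0.261 RPKM in the control replicates and at 1.44 and 1.29 RPKM in the mutant replicates. All 4 values were low, and the mutant libraries lay above the controls without overlap. The means were 0.379 ± 0.166 and 1.37 ± 0.105 RPKM (SD, n = 2), a ratio of 3.61 and a log2 difference of 1.66 (SE 0.347). They rest on 12 and 10 reads in controls against 49 and 37 in mutants, a read ratio of 3.90 with an exact interval of 2.42 to 6.55. Relative to Th, Ddc stood at 0.111 and 0.0580 in controls and at 0.181 and 0.178 in mutants on the RPKM scale.

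The genes tested with the profile closest to Ddc were 1700086L19Rik, S100a10, March11, Slc15a2 and Lect1, at distances of 0.199 to 0.285. Around Ddc, Grb10, which encodes an adaptor of growth factor receptors and shares an imprinted domain with Ddc, was at 131 RPKM in controls and 195 RPKM in mutants on average. Its log2 difference of 0.57 (SE 0.0405, limma, adjusted p = 0.000322) was past the threshold on adjusted p but just under a fold of 1.5. On the other side, Fignl1 differed by -0.11 (limma, adjusted p = 0.343), and Ikzf1 was under the filter. Cobl, on the side of Grb10, was under the filter as well. The non-coding gene 1700042O10Rik overlaps Ddc by 17199 bases and averaged 0.0402 RPKM in controls and 0 in mutants. The counting is not stated to have used strand.

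Dbh (gene ID 13166, chromosome 2, 27165507 to 27183204), which makes noradrenaline, was measured at 0 and 0.0239 RPKM in the control replicates and at 0.0809 and 0.128 RPKM in the mutant replicates. These are 0 and 1 reads in controls and 3 and 4 reads in mutants. Both mutant values were higher, but at the limit of detection: 3 reads, the most that a count of 0 allows, stand for 0.0717 to 0.114 RPKM in these libraries. The ratio of reads was 6.99 with an exact interval of 0.898 to 315, so a difference could not be resolved at this depth.

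Pnmt (gene ID 18948, chromosome 11, 98386623 to 98388180), the enzyme of the last step, was measured at 0 and 0.246 RPKM in the control replicates and at 3.46 and 5.60 RPKM in the mutant replicates. Both mutant libraries were well above both controls. They differed from each other more than the 2 mutant libraries did for the other called members. The means were 0.123 ± 0.174 and 4.53 ± 1.51 RPKM (SD, n = 2), with 0 and 4 reads in controls and 50 and 68 reads in mutants. The ratio of reads was 29.5, with an exact interval of 11.2 to 109.9. The fitted log2 difference was 4.60 (SE 0.587), a value that depends on the constant of 0.1 added to RPKM. Without control replicate 1 it was 3.70 and without control replicate 2 it was 5.49. In the same mutant libraries Dbh, whose product the PNMT enzyme acts on, had 3 and 4 reads.

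None of the genes beside Pnmt that entered the comparison was called. Pgap3, 491 bases away, differed by -0.12 (limma, adjusted p = 0.547), Stard3 by 0.28 (limma, adjusted p = 0.0245, under the fold) and Erbb2 by 0.21 (limma, adjusted p = 0.177). Tcap, 1669 bases away on the other side, was under the filter at 0.206 RPKM in controls and 0.497 RPKM in mutants. Pnmt reads were counted over 888 bases.

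Gch1 (gene ID 14528, chromosome 14, 47153895 to 47189413), the first enzyme of tetrahydrobiopterin synthesis, was measured at 0.375 and 0.395 RPKM in the control replicates and at 0.467 and 0.265 RPKM in the mutant replicates. The mutant libraries lay on both sides of the controls. With 12 and 20 reads in controls and 21 and 10 in mutants, the ratio of reads was 0.967 and its exact interval 0.571 to 1.64. The cofactor enzyme thus showed no difference that could be resolved at this depth, at a level near that of Ddc in controls.

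Slc18a2 (gene ID 214084, chromosome 19, 59260878 to 59296012), the vesicular monoamine transporter of neurons, was measured at 2.02 and 2.17 RPKM in the control replicates and at 2.98 and 2.11 RPKM in the mutant replicates. Mutant replicate 1 was above both controls and mutant replicate 2 lay between them. The means were 2.09 ± 0.102 and 2.55 ± 0.609 RPKM (SD, n = 2), and the log2 difference of 0.25 (SE 0.179) did not meet the call rule. The ratio of reads was 1.22 (exact interval 1.03 to 1.46), from 89 and 151 reads in controls and 184 and 110 in mutants.

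Maoa (gene ID 17161, chromosome X, 16619698 to 16687812), a mitochondrial oxidase of noradrenaline and serotonin, was measured at 5.57 and 5.22 RPKM in the control replicates and at 3.98 and 3.602 RPKM in the mutant replicates. Both mutant libraries were below both controls. The means were 5.39 ± 0.244 and 3.79 ± 0.265 RPKM (SD, n = 2), and the log2 difference of -0.50 (SE 0.0924) was smaller than the 1.5-fold needed for a call. The controls held 268 and 398 reads and the mutants 269 and 205, and the controls had 1.41 times as many per library size (exact interval 1.25 to 1.59). Relative to Th, Maoa stood at 1.24 and 1.16 in controls and at 0.498 and 0.495 in mutants on the RPKM scale.

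Maoa is X-linked, and genes that differ between the sexes differed between the pools. Xist, the RNA of the inactive X chromosome, was at 22.4 and 21.6 RPKM in controls and 6.55 and 6.03 RPKM in mutants (log2 difference -1.79, limma, adjusted p = 2.03e-05). The Y-linked gene Eif2s3y was called higher in mutants (log2 difference 0.60, limma, adjusted p = 0.00114), at 0.55 and no longer called without control replicate 2, and Kdm5d, Ddx3y and Uty differed by 0.45, 0.14 and 0.20 without a call. The 425 X-linked genes tested without Xist, Maoa among them, had a median log2 difference of -0.03. Of them, 5.88% were as low as Maoa or lower, Maoa included, against 4.48% of all genes tested. The part of the sex of the embryos in the Maoa value was not tested.

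**Figure D2:**
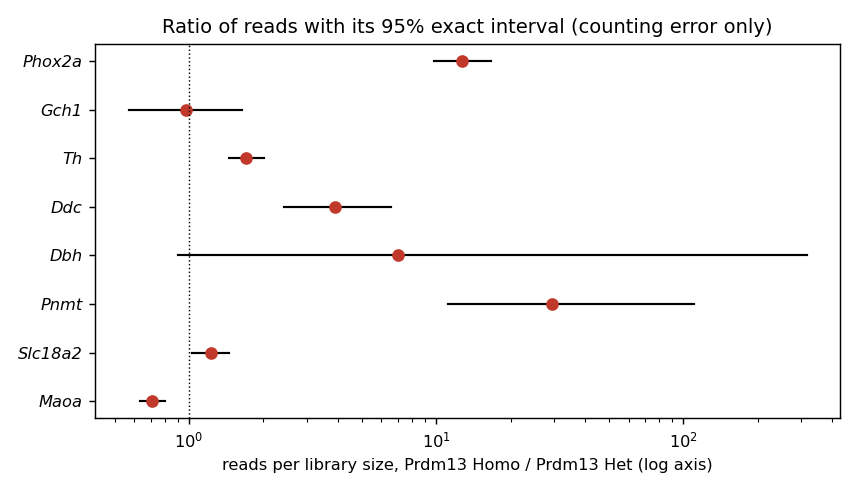
The ratio of reads per library size, Prdm13 Homo over Prdm13 Het, is plotted on a log axis for each gene, with its 95% exact interval for counting error as a line and a dotted line at 1. The ratios run from 0.711 for Maoa to 29.5 for Pnmt, and the widest interval, 0.898 to 315, is that of Dbh.

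Ranked by mean RPKM, the control libraries ran from Maoa through Th, Slc18a2 and Phox2a to Gch1, Ddc, Pnmt and Dbh. The neighbours Gch1 and Ddc overlapped in their library values, as did Pnmt and Dbh, and the other neighbours did not. In the mutant libraries the order was Phox2a, Th, Pnmt, Maoa, Slc18a2, Ddc, Gch1 and Dbh, in which Pnmt and Maoa alone overlapped as neighbours. Phox2a moved from the fourth place to the first, Pnmt from the seventh to the third, and Dbh was last in both. The synthesis enzymes together summed to 4.97 and 5.03 RPKM in controls and to 13.0 and 14.3 RPKM in mutants. The median log2 difference of the 6 members tested was 1.21, and that of all genes tested 0.01.

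Other genes of the pathway, of other transmitters, of cell types that make catecholamines and of the sex chromosomes were followed through 12 lists written with earlier results of these data known. They name 94 genes that are not members, all in the table, of which 43 were tested, 7 called higher and 5 called lower, with a median log2 difference of 0.07. Of those tested, 27.9% were called in either direction, where the share of all genes tested was 6.33%. The calls include the sex-linked genes Eif2s3y and Xist, and since the lists were written with results known, nothing is read from the share. Of 7 genes that make and recycle tetrahydrobiopterin 6 were tested and 0 called, with Qdpr, which recycles it, at 0.17 (limma, adjusted p = 0.0538), Pts, its second enzyme after GCH1, at -0.15 (limma, adjusted p = 0.299) and Spr, its last, at 0.08 (limma, adjusted p = 0.416).

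Of 13 genes that supply other cofactors, methyl groups and tyrosine, 10 were tested and 1, Slc7a5, fell. Slc7a5, the transporter that brings large neutral amino acids such as tyrosine into the cell, was at 32.8 and 32.6 RPKM in controls and 13.5 and 13.3 RPKM in mutants (log2 difference -1.28, SE 0.0509, limma, adjusted p = 2.71e-05). Slc3a2, its heavy chain partner, differed by -0.40 (limma, adjusted p = 0.00472), under the fold. Mat2a, which makes the methyl donor that PNMT uses, differed by 0.09 (limma, adjusted p = 0.29), and Atox1, a copper chaperone on the route to DBH, by 0.03 (limma, adjusted p = 0.651).

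Among the transporters of monoamines across the cell membrane and into vesicles, 1 of 5 was tested and rose. This was Slc29a4, a low-affinity monoamine transporter of the plasma membrane, at 29.7 and 30.1 RPKM in controls and 48.6 and 54.2 RPKM in mutants (log2 difference 0.78, SE 0.0639, limma, adjusted p = 0.000555). The transporters that define noradrenergic and dopaminergic neurons were at or near 0, since Slc6a3 was at 0 in all 4 libraries and Slc6a2 reached 0.0569 RPKM at most. Slc18a1, the vesicular transporter of endocrine cells, reached 0.210 RPKM.

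Of 7 genes of the dense-core granule, 5 were tested and 1, Cyb561, rose. Cyb561 encodes the cytochrome that keeps ascorbate reduced in the granule for DBH, and was at 1.15 and 1.85 RPKM in controls and 3.28 and 3.55 RPKM in mutants (log2 difference 1.17, SE 0.217, limma, adjusted p = 0.0135). The granule proteins Chgb, Scg3 and Scg5 differed by 0.15, -0.10 and -0.13 without a call. Without mutant replicate 1 or mutant replicate 2, Cyb561 differed by 1.22 and 1.11 with limma adjusted p = 0.0813 and 0.128, and was not called.

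Of 7 further enzymes of breakdown, 3 were tested and 0 called, with Akr1a1 at 0.07 (limma, adjusted p = 0.278) and Aldh2, which oxidises the aldehydes that monoamine oxidases make, at 0.05 (limma, adjusted p = 0.6). Maob, the close relative of Maoa, was under the filter, at 0.317 RPKM or less. Of 14 receptors of catecholamines, 3 were tested. Adra2a, an inhibitory receptor of noradrenaline and adrenaline, rose from 1.09 and 1.21 to 2.14 and 2.77 RPKM (log2 difference 1.02, limma, adjusted p = 0.012), and the dopamine receptor gene Drd2 fell from 1.95 and 2.75 to 0.874 and 1.04 RPKM (log2 difference -1.20, limma, adjusted p = 0.0124). Adra1a differed by 0.07 (limma, adjusted p = 0.621). Both calls rest on few libraries: Adra2a was not called without control replicate 1, control replicate 2 or mutant replicate 2 (0.96, 1.09 and 0.84), nor Drd2 without control replicate 2, mutant replicate 1 or mutant replicate 2 (-0.96, -1.09 and -1.31).

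The lists for other small transmitters gave no gene above the filter. The 6 genes of serotonin and histamine summed to 0.513 to 0.889 RPKM over the 4 libraries, with Tph2, which makes serotonin in neurons, at 0.0658 RPKM at most. Of the 4 genes of acetylcholine, Chat, its synthesis enzyme, was at 0.175 RPKM at most and its vesicular transporter Slc18a3 at 0.565 RPKM at most.

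**Figure D3:**
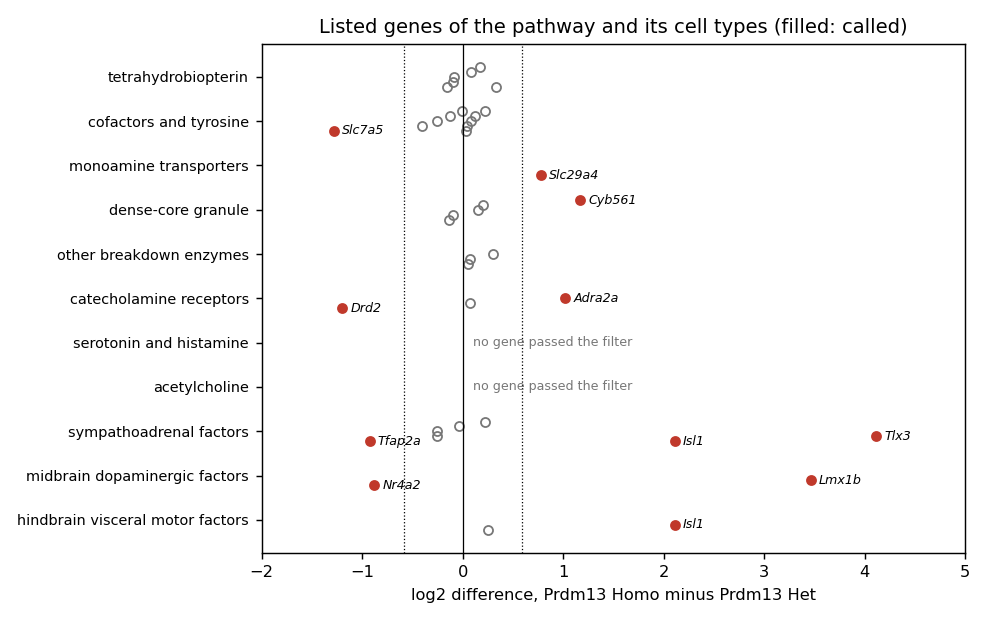
The log2 difference, Prdm13 Homo minus Prdm13 Het, is plotted for the listed non-member genes tested, by list and without the sex-linked ones, with filled red points for called genes and dotted lines at a fold of 1.5. Most open points lie close to 0, 2 lists hold no tested gene, and the called genes of the factor lists (Tlx3, Lmx1b, Isl1) lie farthest to the right.

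Transcription factors were listed for noradrenergic and sympathoadrenal cells, for midbrain dopaminergic neurons and for hindbrain visceral motor neurons. Of 11 noradrenergic and sympathoadrenal factors 7 were tested, and Tlx3 and Isl1 rose while Tfap2a fell. Tlx3, a homeobox gene of noradrenergic centres and also of dorsal excitatory interneurons, went from 4.63 and 5.63 to 86.2 and 94.1 RPKM (log2 difference 4.11, limma, adjusted p = 3.88e-06). Isl1, a LIM homeodomain gene of sympathetic, sensory and motor neurons, went from 1.71 and 1.66 to 7.84 and 7.38 RPKM (log2 difference 2.11, limma, adjusted p = 3.79e-05). Tfap2a, an AP-2 factor of neural crest and of dorsal interneurons, fell from 49.4 and 51.2 to 26.4 and 26.5 RPKM (log2 difference -0.93, limma, adjusted p = 8.04e-05).

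Other factors of this list with high levels were not called. Sox11, which sympathetic neuron precursors use, went from 178 and 186 to 216 and 209 RPKM (0.23, limma, adjusted p = 0.019, under the fold), and Tfap2b differed by -0.04 (limma, adjusted p = 0.649). The factors that define the sympathoadrenal fate were near 0 in every library. Hand2 reached 0.0654 RPKM, Hand1 0.0385 RPKM, Gata3 0.0957 RPKM and Gata2 0.303 RPKM.

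Of 8 midbrain dopaminergic factors 2 were tested. Lmx1b, a LIM homeodomain gene also used by dorsal excitatory neurons, rose from 1.84 and 1.88 to 22.2 and 20.9 RPKM (log2 difference 3.46, limma, adjusted p = 3.4e-06), and Nr4a2, the nuclear receptor that drives Th in dopaminergic neurons, fell from 4.05 and 3.98 to 2.32 and 1.97 RPKM (log2 difference -0.88, limma, adjusted p = 0.00451). Pitx3 and Foxa2, which mark those neurons, reached 0.0446 and 0.123 RPKM. En1, a homeobox gene of the midbrain and also of ventral interneurons, was under the filter at 0.101 and 0.214 RPKM in controls and 0.771 and 1.03 RPKM in mutants (3 and 10 against 32 and 36 reads), and was called higher when no filter was applied. Of 10 factors of hindbrain visceral motor neurons, which also use Phox2 genes, 2 were tested: Isl1 rose, as above, and Nkx6-1 differed by 0.25 (limma, adjusted p = 0.161). Tbx20, a marker of those neurons, reached 0.0892 RPKM.

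**Figure D4:**
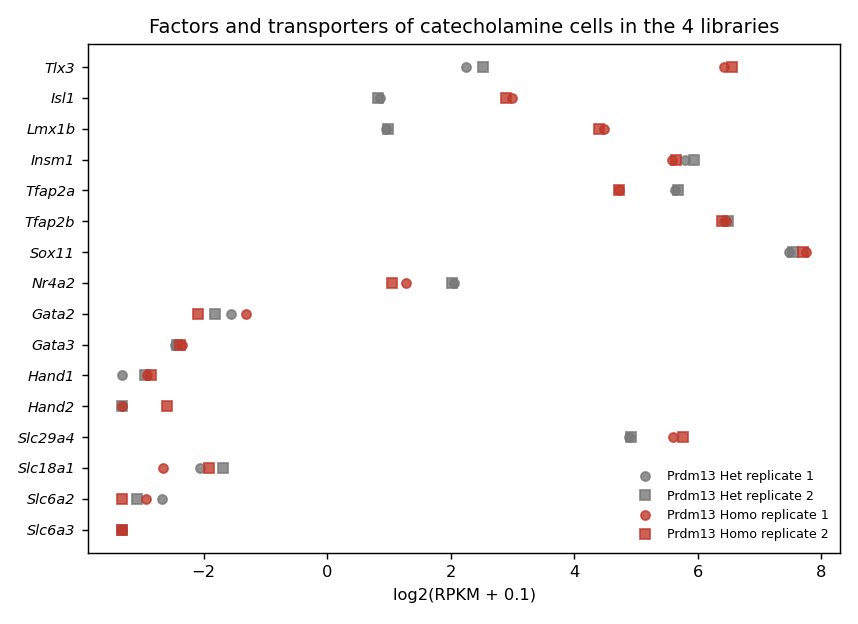
The level of selected factors and transporters of catecholamine cells is plotted as log2(RPKM + 0.1), with 1 point for each of the 2 Prdm13 Het (grey) and 2 Prdm13 Homo (red) libraries. Red points lie to the right for Tlx3, Isl1, Lmx1b and Slc29a4, while Gata2, Gata3, Hand1, Hand2, Slc18a1, Slc6a2 and Slc6a3 lie at the low end in both genotypes.

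Markers of cells that a neural tube dissection could also hold were read beside these results. All 9 neural tube markers were tested, and 1 of them, Lbx1, fell (-0.61). Of 12 dorsal root ganglion markers 5 were tested and 4 rose, among them Pou4f1 by 1.59, Ntrk3 by 0.93 and Isl1 by 2.11 on the log2 scale. Their summed level was 38.8 to 40.1 RPKM in controls and 85.8 to 86.2 RPKM in mutants, while Avil was at 0.223 RPKM or less, Runx1 at 0.0297 and Runx3 at 0.0752. Some of these genes, Pou4f1 and Isl1 among them, are also used by dorsal interneurons, and the part of ganglion cells in the levels of the catecholamine genes was not tested.

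Of 12 sympathoadrenal markers, among them the members Th and Dbh, 4 were tested: Npy fell (-1.36), and Th met the call rule upward, as given above. Their sum was 59.4 to 61.1 RPKM in controls and 62.4 to 63.6 RPKM in mutants. Most of it was Chga, at 17.2 to 21.1 RPKM over all libraries, and Chgb, at 26.6 to 30.5 RPKM, neither of them called. Hand1, Hand2, Gata3 and Slc6a2 were each under 0.1 RPKM in every library. Of 7 markers of neural crest and glia 4 were tested and Foxd3 fell (-1.41), with sums of 705 to 781 RPKM in controls and 696 to 700.2 RPKM in mutants, most of it Fabp7, which progenitors of the neural tube also express. Sox10, which defines the crest, was at 0.781 RPKM or less. No marker of the 7 erythroid, 5 endothelial and 5 mesenchymal genes was called. Their sums were 30.8 to 31.4, 2.099 to 2.90 and 4.44 to 4.89 RPKM in controls and 33.1 to 34.5, 2.70 to 3.15 and 3.34 to 3.53 RPKM in mutants, and the adult globin genes Hba-a1, Hba-a2 and Hbb-bs were listed at 0.

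Over the whole series, effective library sizes of 11572778 to 18323396 were recovered from the steps between values, the smallest for control replicate 1. These are the sizes behind the scaled RPKM and not counts of sequenced reads. In all, 19200 genes were above 0 in a library. Libraries of 1 pool differed for a gene by 0.078 on the log2 scale in the median. Prdm13 itself was at 120.4 ± 9.10 RPKM in controls and 317 ± 10.6 RPKM in mutants (SD, n = 2), but the knock-in leaves most of the gene in place, so this RNA is no check of the loss of the protein.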

How the data were processed

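GFP+ cells from E11.5 neural tubes were compared between 2 Prdm13 Homo and 2 Prdm13 Het libraries of polyadenylated RNA. The submitters' processing notes name CASAVA, TopHat2 2.1.0, edgeR 3.6.8 and mm10. Reads on the exons of RefSeq genes were counted with featureCounts and scaled by TMM, and the authors deposited RPKM, which were used as they are. A gene entered the comparison if its RPKM averaged 1 or more in at least 1 of the genotypes (12046 genes). The test was two-sided, from limma 3.58.1 in R 4.3.3 (lmFit, then eBayes with a trend) on log2(RPKM + 0.1), and p-values were adjusted after Benjamini and Hochberg. Differences on this scale understate those of low genes. Calls needed both an adjusted p below 0.05 and a fold of 1.5 or more. With 2 libraries a group, the smallest p of an exact permutation test is 0.333. The fit was tested on simulated data.

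Reads were recovered from the steps between RPKM values, whose size depends on exon length and library size. Of 13144 genes with at most 400 steps in the lowest library, 98.9% had a solved length within 0.02 of a whole base. That check does not fix how many reads make 1 step. A solved length within 1 base of an annotated length set this number for 23.0% of these genes, Phox2a, Ddc and Pnmt among them. For the others, such as Th, Dbh, Gch1, Slc18a2 and Maoa, the number giving the length nearest to the annotated exons was taken. Their reads and intervals are therefore less certain. Intervals of read ratios are exact (95%, Clopper-Pearson), with the libraries of a genotype summed, and, like the floor of 3 reads, cover counting error only. Python 3.11.15, numpy 2.4.6, pandas 2.3.3, scipy 1.17.1 and matplotlib 3.10.9 were used.

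The members and lists were chosen with earlier results of these data known. Named are all members, the called genes of each list with up to 3 others of the highest mean RPKM, 5 genes of like profile for Phox2a and Ddc, the neighbours of members that differed by at least 1 on the log2 scale, and Prdm13. Other listed genes, such as those at or near 0, En1 and Slc3a2, were picked after their values were seen. Alternatives were other pseudocounts, filters, scalings and priors, an unadjusted p, a replicate block and leaving out each library. The ChIP-seq data were not analysed here, and the results of some genes are not reported here.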

Additional observations from a re-analysis of the deposited data

How the results depend on the processing

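Under other pseudocounts, scalings, the replicate block and each library left out, the log2 differences of Phox2a, Th, Ddc, Dbh, Pnmt, Slc18a2 and Maoa kept their direction. That of Gch1, -0.093 with all libraries, turned to 0.23 without Prdm13 Homo replicate 2 and ranged from -0.41 to 0.23 over the libraries left out. Pseudocounts of 1 and 0.01 moved Pnmt from 4.60 to 2.28 and 6.45 and Dbh from 0.87 to 0.13 and 2.60, and a pseudocount of 1 moved Phox2a to 2.97, Ddc to 0.79 and Th to 0.65. Leaving out 1 library at a time, which assumes that the lone library varies like the other genotype's pair, gave 258 to 437 genes called higher (440 with all), 212 to 266 called lower (322), and 2 to 4 members called higher (4). The lowest counts came without Prdm13 Homo replicate 2, when Ddc (1.73) and Pnmt (4.26) lost their calls, and Ddc (1.59) lost it without Prdm13 Homo replicate 1 as well. Without Prdm13 Homo replicate 1, the difference of Slc18a2 was 0.01. The Pnmt difference ranged from 3.70 to 5.49 over the libraries left out. Listed non-member genes called were 5 to 6 higher (7 with all) and 4 to 5 lower (5). With a pseudocount of 1, 334 genes were called higher and 221 lower, and Eif2s3y lost its call. The same replicate numbers did not deviate together between the genotypes (correlation 0.047), so they were not taken as pairs, and with the replicate number as a block 459 genes were called higher, 342 lower, and 4 members higher. Depth limits Dbh and Gch1, with 1 and 32 reads in controls and 7 and 31 in mutants.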
